A study of Mus musculus with 9 samples.

Results

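The integrin subunits and laminin chains were followed in mouse kidneys during and after obstruction of the ureter. Members were chosen by gene name: an integrin alpha or beta subunit with a number, the named subunits Itgae, Itgal, Itgam, Itgav and Itgax, or a laminin alpha, beta or gamma chain. The RefSeq table holds 36 such genes, and 33 of them had a probe on the array matched by RefSeq accession. Of these 33, 30 had a signal well above background on 3 or more arrays and were tested among 17742 genes: 22 integrin subunits and 8 laminin chains. No probe was matched for Itga10, Itgb8 and Lamc1. Itga2, Lama2 and Lamc3 were matched but not tested, because they were well above background on 0, 2 and 1 arrays.

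All mice were males aged 10 weeks of the ISAM line (genotype Epo–/–::3.3K-Epo3'-Tg458, mixed strain background), a model of anaemia from lack of erythropoietin, so the controls are anaemic too and share the missing Epo gene and the transgene. In the Clip group (3 mice) a vascular clip closed the left ureter for 2 days. In the ClipR-14 group (3 mice) the clip had been on for 2 days and off for 12 days. The control arm joined 2 sham-treated mice and 1 untreated mouse, whose day of collection is not given in the labels. The whole left kidney gave the RNA for each single-colour array, so more cells of a type and more RNA per cell cannot be told apart. Levels below are log2 of a probe's intensity over its array's 75th percentile, and a level is compared only between arrays, not between probes. Changes are differences of arm means with the standard error of the limma fit (n = 3 per arm), and a gene is said to rise or fall only where the p-value, adjusted by the Benjamini-Hochberg method over the 17742 genes, was under 0.05.

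Integrins are cell surface receptors made of an alpha and a beta subunit that hold cells to matrix or to other cells and pass signals through the membrane. Laminins are trimers of an alpha, a beta and a gamma chain and form the sheet on which basement membranes are built. In the kidney, tubule cells and podocytes stand on laminin through Itgb1 dimers, and immune cells use integrins with Itgb2, Itgb7 or Itga4 to leave the blood and to hold to other cells.

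The arrays showed the labelled tissue: the 6 proximal tubule markers and the 5 collecting duct markers were well above background on all 9 arrays. Both Epo probes were well above background on 0 of 9 arrays; whether they lie in the deleted sequence was not tested, and all groups share the deletion. Between 52.0% and 57.5% of probes per array were well above background, and no spot was saturated. The 9 arrays lay on 3 slides with 1 array of each arm per slide, and slide 3, with the untreated mouse, was scanned on another date. Deviations from the arm means correlated at 0.161 to 0.282 across genes between arrays of a slide and at -0.239 to 0.00291 between arrays of different arms on different slides; genes are not independent replicates here. Slide as a block, and the change within each slide, are therefore given where they bear on a result.

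At the end of obstruction most of the receptor genes were higher, whereas the laminin chains went both ways. Of the 30 members 18 rose and 3 fell in Clip against control kidneys, and 9 did not pass. Among all genes tested 21.4% were higher and 27.5% lower, 48.9% in all. The members' 70.0% of calls lay above this background through the rises alone. Their 3 falls of 30 lay below the share of falls among all genes. The median change was 0.69 for the members and -0.09 for all genes. All 21 called members moved the same way on each of the 3 slides, and their arms did not overlap. The calls were made on these same arrays, so this is no separate support. Over all 30 members the arms were apart for 22, against 58.6% of all genes. By the fitted change, 11 called members changed 2-fold or more, against 18.9% of all genes. These 11 include Itgam and Itga4, whose rises can only be given as at least 1.97-fold and 1.26-fold. They also include Itga2b, whose sign turned with normexp. By kind, 16 of 22 integrin subunits rose and 1 fell, with a median of 0.88, and 2 of 8 laminin chains rose and 2 fell, with a median of 0.36. For the 9 members with several probes above background, all probes of a gene moved in 1 direction. With normexp background correction, a different treatment of dim signals, the median of all genes was 0.10 in place of -0.09, 15 of the 21 calls were kept, and the median of the members was 0.57. The probes used for Itgam and Itga4 were well above background on Clip arrays alone. These genes could thus be tested only through the arm where they were high. With probes well above background on all 9 arrays, 15 of 26 members rose and 2 fell, where 7770 of 15127 genes were called.

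**Figure D1:**
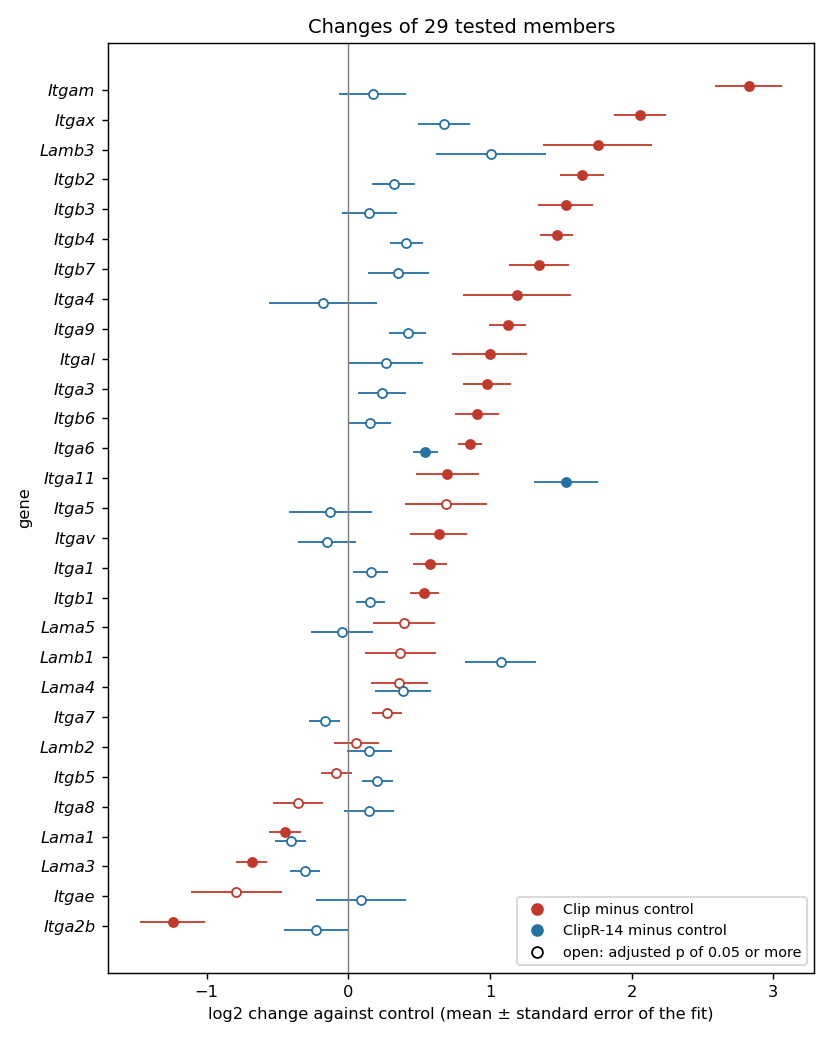
Log2 change of 29 tested members in Clip (red) and ClipR-14 (blue) against the same control arm, with the standard error of the fit (n = 3 per arm). Filled points passed the threshold; red points spread from -1.24 for Itga2b to 2.83 for Itgam, while all blue points but those of Itga6 and Itga11 are open.

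Among the laminin chains, Lamb3 rose and Lama3, the alpha chain of the same epithelial trimer, fell. This trimer lies under epithelia such as skin and urothelium and binds the integrin dimer of Itga6 and Itgb4. Lamb3, its beta chain, stood at -3.02, -3.56 and -4.43 in sham 1, sham 2 and the untreated mouse, at -1.62, -1.66 and -2.44 in Clip and at -2.18, -2.78 and -3.02 in ClipR-14. All Clip arrays were above all controls, and the untreated mouse was the lowest and not well above background. The rise was 3.39-fold (1.76 ± 0.39, adjusted p = 0.00558), with 1.39, 1.90 and 1.98 on the 3 slides; normexp gave 0.94.

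Lama3 was at -0.23, -0.22 and -0.18 in control, -1.07, -0.92 and -0.69 in Clip, and -0.47, -0.59 and -0.49 in ClipR-14. The 3 arms were apart, with ClipR-14 in between. The fall in Clip was 1.61-fold (-0.68 ± 0.11, adjusted p = 0.000962; -0.48 with normexp). The dimmer Lama3 probe, well above background on only 2 arrays, was lower in Clip too, by 0.78 on the log2 scale in the mean. The files do not say which Lama3 transcripts the probes read. Beside these chains, markers of urothelium and of injured tubule moved: the keratins Krt5 and Krt20 rose 5.46-fold and 66.9-fold (log2 change of Krt20 6.07, and 3.95 with normexp), while the 4 uroplakins did not pass (-0.31 to 0.39), and all 9 injured tubule markers rose. The summed level of the 6 urothelium markers was 1.01 to 2.01 in control, 7.87 to 8.25 in Clip and 2.06 to 2.64 in ClipR-14, in units of the 75th percentile. Bright genes weigh most in such sums. This one includes Krt5 and Krt20, so its rise does not speak for the 4 uroplakins. Of all genes 21.4% rose in Clip. The part of these markers in the laminin changes was not tested.

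To show the region where Lamb3 starts, 300 bases (250 before to 50 after a start) from RefSeq, build GRCm38.p6, are printed 5′ to 3′. Of the 33 members matched to a probe, 21 had such a window that was used, 24 windows in all. Any member windows on a chromosome left out of this search are not among them. The shares over all windows, given below, include that chromosome. Capitals mark matches, on either strand, to TGANTCA (the AP-1 motif), GGAATG (TEAD) and GGGCGG (Sp1 and KLF).
Lamb3, chr1:193301993-193302292, plus strand: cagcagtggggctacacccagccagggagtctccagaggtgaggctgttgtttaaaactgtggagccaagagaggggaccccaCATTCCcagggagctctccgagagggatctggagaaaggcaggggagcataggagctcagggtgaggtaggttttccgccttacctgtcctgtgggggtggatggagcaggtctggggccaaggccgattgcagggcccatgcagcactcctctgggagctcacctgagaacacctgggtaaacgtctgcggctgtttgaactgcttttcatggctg
This Lamb3 window, from the second of 2 overlapping starts in the table, holds 1 TEAD match, at -167 from the start; the other Lamb3 window holds no match to the 3 motifs. Over the 24 windows, 3 held an AP-1 match, 2 a TEAD match and 12 an Sp1 and KLF match, where the shares among all 32851 windows were 7.81%, 14.7% and 35.7%. A match describes letters and not binding.

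Of the chains of the main kidney laminins, Lama5, Lamb1 and Lamb2 did not pass in Clip in the fit without slide as a block. Lamc1, without a matched probe, was not tested. Lama5, the alpha chain of mature kidney basement membranes, was at 2.19, 2.26 and 2.79 in control, 2.57, 2.81 and 3.04 in Clip, and 2.05, 2.37 and 2.69 in ClipR-14. The arms overlapped and the change did not pass (0.39 ± 0.22, adjusted p = 0.167). Array 3 of each arm was the highest, and with slide as a block the change of Lama5 passed (adjusted p = 0.00792), being 0.38, 0.55 and 0.25 within the slides. Lamb2, the beta chain of the glomerular basement membrane, had 1.89, 1.76 and 1.46 in control, 1.96, 1.82 and 1.49 in Clip and 1.94, 1.93 and 1.69 in ClipR-14, so the arms overlapped (0.06 ± 0.16). Lamb1, the beta chain of developing and vascular basement membranes, had its highest values after release: -1.13, -0.44 and -0.59 in control, -0.37, -0.22 and -0.46 in Clip, and 0.22, 0.87 and -0.03 in ClipR-14. All 3 ClipR-14 arrays of Lamb1 lay above all others. The change against control, 1.07 ± 0.25, had an adjusted p of 0.065 without and 0.0392 with slide as a block.

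Lama1, the alpha chain of early nephron and proximal tubule basement membranes, was at -2.49, -2.49 and -2.38 in control, -2.94, -2.74 and -3.03 in Clip and -2.72, -2.91 and -2.96 in ClipR-14. Both later arms lay below control. It fell 1.36-fold in Clip (-0.45 ± 0.11, adjusted p = 0.00958), but its sign turned with normexp (0.15, adjusted p = 0.663). Lama4, a chain of vessel walls, did not pass; it was 0.22, -0.29 and -0.56 in Clip, the widest spread of the alpha chains in that arm, against -0.63, -0.58 and -0.50 in control and -0.11, 0.01 and -0.44 in ClipR-14. Lama2 and Lamc3 stayed near or below background: the Lamc3 probe with the brighter mean gave -4.23, -4.12 and -3.59 in control and -5.06, -5.22 and -5.97 in Clip, and no change is given.

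**Figure D2:**
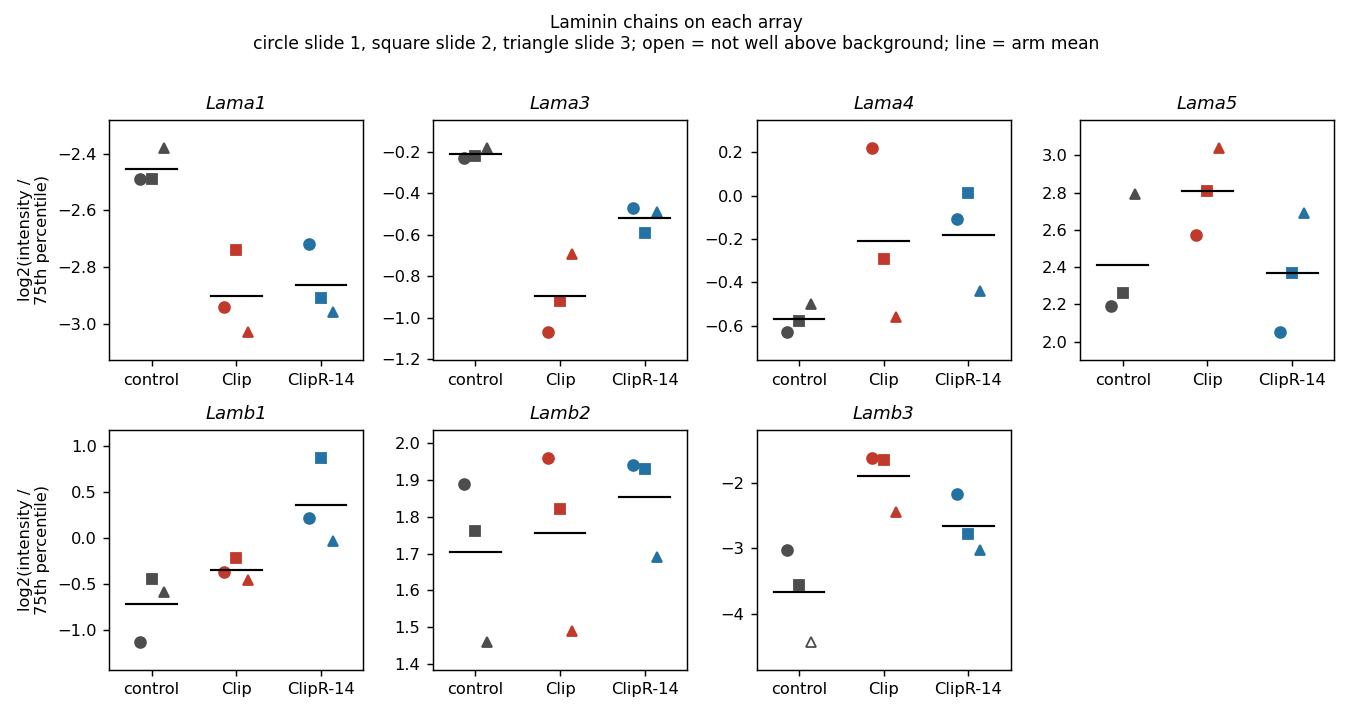
Level of 7 tested laminin chains on each array, as log2 of the intensity over the array's 75th percentile, by arm; each panel has its own axis, shapes mark the slide and lines the arm means. Lamb3 is higher and Lama3 lower in Clip, and Lamb1 is highest in ClipR-14.

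Of the 5 laminin-binding integrin subunits 4 rose and none fell (background 21.4% higher). Itgb4, whose long tail ties the Itga6 dimer to keratin filaments in hemidesmosomes, was at 0.01, 0.02 and -0.07 in control, 1.66, 1.37 and 1.34 in Clip, and 0.41, 0.53 and 0.25 in ClipR-14. The 3 arms were apart. Itgb4 rose 2.77-fold in Clip (1.47 ± 0.12, adjusted p = 2.57e-05). Its partner Itga6 was at 1.59, 1.50 and 1.67 in control, 2.48, 2.50 and 2.36 in Clip, and 2.14, 2.09 and 2.17 in ClipR-14. Itga6 rose 1.81-fold (0.86 ± 0.09, adjusted p = 8.63e-05), and its ClipR-14 values lay nearer to Clip than to control. Itga3, the main laminin receptor alpha subunit of podocytes and tubule cells, was at 0.25, 0.07 and -0.14 in control, 1.32, 1.09 and 0.72 in Clip, and 0.42, 0.32 and 0.17 in ClipR-14. It rose 1.97-fold (0.98 ± 0.17, adjusted p = 0.00152), and its 3 probes gave 0.37 to 0.98.

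Itgb1, the beta subunit shared by most matrix receptors, had 0.67, 0.75 and 0.79 in control, 1.10, 1.32 and 1.40 in Clip, and 0.80, 0.92 and 0.96 in ClipR-14. The rise was small and even, 1.45-fold (0.54 ± 0.10, adjusted p = 0.00272). Itga7, best known from muscle, did not pass (0.27 ± 0.11, adjusted p = 0.0667; 0.035 with slide as a block), though its Clip values of -1.52, -1.64 and -1.77 were all above the controls at -1.85, -1.97 and -1.93. Beside the rise of Itga3, 4 of 6 podocyte markers fell and 2 did not pass. Of the 6 proximal tubule markers 5 fell, where 27.5% of all genes did. The part of these cell types was not tested.

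The 3 other genes of hemidesmosomes given here were all named by their values. Col17a1 and Dst are among the 3 largest rises or falls of their lists, and Plec was chosen after its values were seen. Their directions give no count for hemidesmosome genes. Col17a1, the transmembrane collagen of hemidesmosomes, rose at least 7.41-fold from a level below background on all control arrays (means -6.28 and -1.39, adjusted p = 2.38e-05). With normexp its log2 change was 1.68. Plec, the plectin that links Itgb4 to keratins, rose 2.25-fold (1.17 ± 0.22, adjusted p = 0.00231). Dst, a large linker whose epithelial form also sits in hemidesmosomes, fell 2.11-fold (-1.08 ± 0.08, adjusted p = 1.84e-05). Col17a1 was not well above background on any ClipR-14 array either, so it could be tested only through Clip. Which form of Dst the probe reads is not given in the sources used here.

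Among collagen-binding subunits, Itga1 rose in Clip and fell after release, and Itga11 was highest after release. Itga1, a collagen receptor of mesangial, vascular and immune cells, was at 0.19, 0.10 and 0.38 in control, 0.70, 0.80 and 0.91 in Clip and 0.24, 0.33 and 0.58 in ClipR-14. It rose 1.49-fold (0.58 ± 0.12, adjusted p = 0.00457; 0.0577 with normexp). Itga11, a receptor for fibrillar collagen on fibroblasts, was at -1.42, -1.71 and -1.36 in control, -0.65, -0.44 and -1.30 in Clip and -0.17, 0.04 and 0.25 in ClipR-14. Each ClipR-14 array was above every Clip array, and Clip 3 lay close to the controls. The region of the Itga11 start is shown as that of the member with the largest difference between ClipR-14 and control, with the same marking of motifs.
Itga11, chr9:62677605-62677904, plus strand: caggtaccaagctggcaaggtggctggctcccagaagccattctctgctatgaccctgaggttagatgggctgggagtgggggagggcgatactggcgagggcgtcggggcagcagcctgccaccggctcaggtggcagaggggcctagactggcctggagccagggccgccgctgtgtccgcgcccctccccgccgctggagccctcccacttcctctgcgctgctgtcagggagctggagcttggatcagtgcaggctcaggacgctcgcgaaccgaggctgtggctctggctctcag
It holds no match to the 3 motifs.

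Itga11 rose 1.62-fold in Clip (0.70 ± 0.22, adjusted p = 0.03), by 0.76, 1.27 and 0.06 on the 3 slides. That call was lost with normexp (0.0961), with slide as a block (0.0559) or replicate number as a block (0.0502), without the filter on dim probes (0.0607), with only the arms compared (0.0514), and without sham 1 (0.0539), sham 2 (0.0954), Clip 1 (0.0923) or Clip 2 (0.103). Itga9, a receptor for tenascin and osteopontin, had 0.19, 0.23 and -0.10 in control, 1.27, 1.39 and 1.03 in Clip, and 0.43, 0.52 and 0.64 in ClipR-14. It rose 2.18-fold (1.13 ± 0.13, adjusted p = 0.000184), alike on the slides (1.08, 1.16 and 1.13). Itga2, next to Itga1 on the chromosome with no other protein-coding gene between them, was not well above background on any array.

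**Figure D3:**
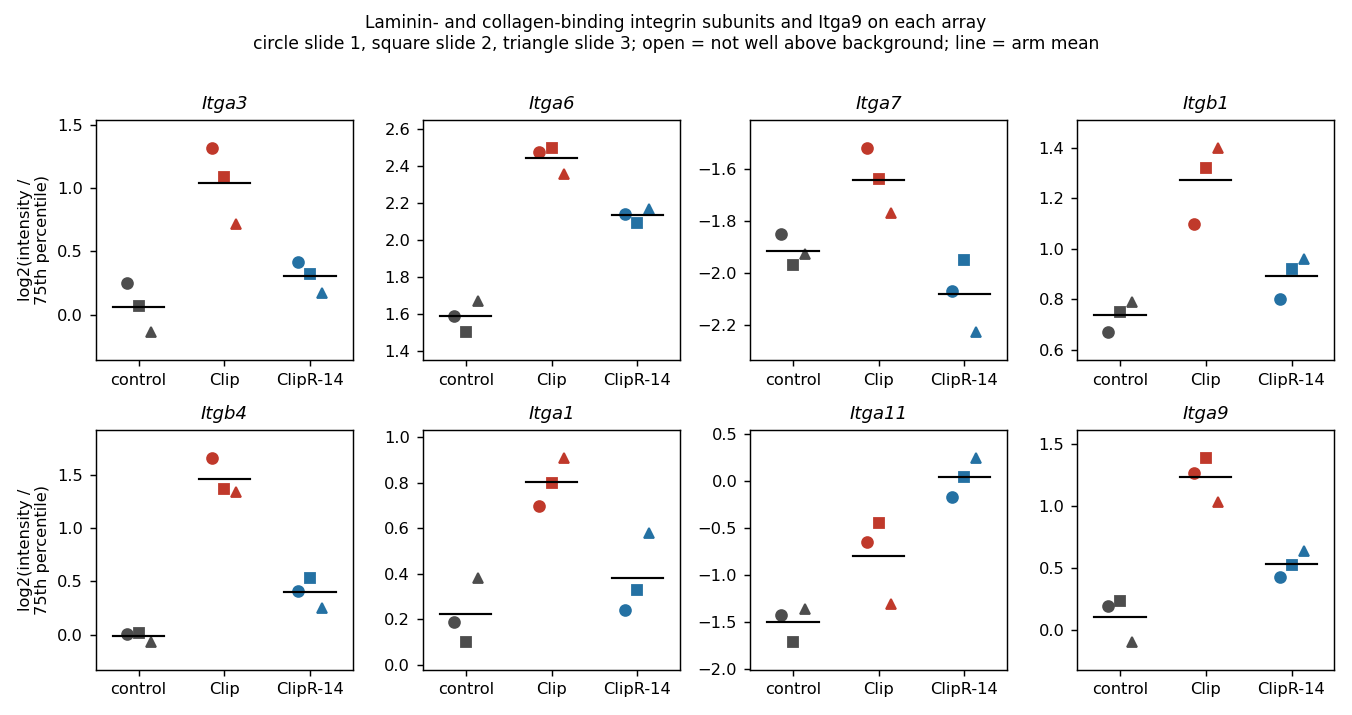
Level of the 5 laminin-binding and 2 tested collagen-binding integrin subunits and of Itga9 on each array, by arm, on the same scale as the laminin plot. Itga3, Itga6, Itgb1, Itgb4, Itga1 and Itga9 are highest in Clip, whereas Itga11 is highest in ClipR-14.

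Of the 7 RGD-binding subunits, which hold fibronectin, vitronectin and latent TGF-beta, 3 rose and 1 fell (background 21.4% higher and 27.5% lower). Itgb3, the partner of Itgav on endothelium, macrophages and osteoclasts and of Itga2b on platelets, was at -1.06, -1.39 and -1.92 in control, -0.04, 0.17 and 0.10 in Clip, and -1.23, -1.32 and -1.38 in ClipR-14. It rose 2.90-fold (1.53 ± 0.19, adjusted p = 0.000294), and the size differed by slide (1.02, 1.56 and 2.02) as the controls did. Itgb6, the epithelial subunit that activates TGF-beta with Itgav, was at 1.45, 1.18 and 1.66 in control, 2.41, 2.41 and 2.19 in Clip and 1.81, 1.43 and 1.49 in ClipR-14. It rose 1.88-fold (0.91 ± 0.15, adjusted p = 0.00133), with 0.73 to 0.91 over its 3 probes. Itgav had 0.10, 0.21 and 0.62 in control, 0.66, 0.88 and 1.31 in Clip and -0.01, 0.13 and 0.36 in ClipR-14. Array 3 was the highest of each arm for Itgav, and the rise was 1.56-fold (0.64 ± 0.20, adjusted p = 0.0286), with 0.56, 0.67 and 0.69 within the slides and an adjusted p of 0.000879 with slide as a block. Without that block the Itgav call was lost with normexp (0.0772), with replicate number as a block (0.061), without the filter on dim probes (0.0593), with only the arms compared (0.05004), and without sham 1 (0.0888), sham 2 (0.0821), Clip 2 (0.0581) or Clip 3 (0.0836).

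Itga2b, which with Itgb3 forms the platelet fibrinogen receptor, went the other way from Itgb3. It was at -2.54, -2.97 and -3.06 in control, -3.74, -4.41 and -4.15 in Clip, and -2.71, -3.27 and -3.27 in ClipR-14, with 2 of 3 Clip arrays well above background. The fall was 2.36-fold (-1.24 ± 0.23, adjusted p = 0.00229), but normexp turned its sign (0.15, adjusted p = 0.727). Of the 4 tested platelet markers, Pf4 rose 7.82-fold and Ppbp at least 5.02-fold, and Gp1bb and Gp9 did not pass. Their summed level was 0.293 to 0.576 in control, 2.33 to 3.46 in Clip and 0.721 to 0.803 in ClipR-14. This sum is mostly Pf4, so it does not speak for the other markers. Mean levels in Clip were 1.32 for Pf4, -1.95 for Ppbp, -3.91 for Gp1bb and -4.14 for Gp9. The part of the platelet markers in the Itga2b and Itgb3 values was not tested.

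Itgb5, another Itgav partner, stayed at 4.48 to 4.83 in control and Clip (-0.08 ± 0.11, adjusted p = 0.561) and was at 4.99, 4.99 and 4.87 in ClipR-14. Itga8, a mesangial and fibroblast receptor for nephronectin, had 0.60, 0.87 and 1.21 in control, 0.55, 0.43 and 0.63 in Clip and 0.77, 1.11 and 1.25 in ClipR-14. The control and Clip values of Itga8 overlapped and the change did not pass (-0.36 ± 0.18, adjusted p = 0.13; 0.0428 with slide as a block). Itga5, the fibronectin receptor subunit, was at -3.08, -3.04 and -2.03 in control and -1.74, -1.92 and -2.42 in Clip. It did not pass (0.69 ± 0.29, adjusted p = 0.081), since the untreated mouse lay among the Clip values.

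**Figure D4:**
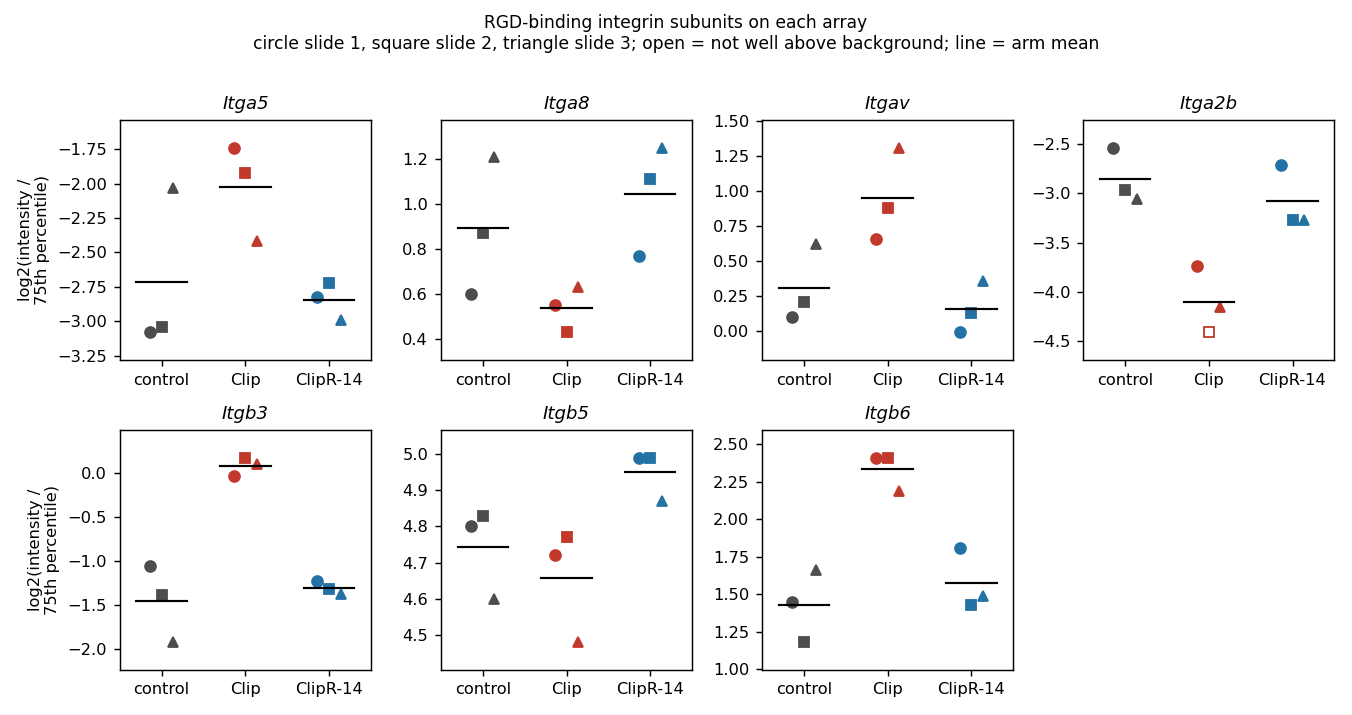
Level of the 7 RGD-binding integrin subunits on each array, by arm, on the same scale as the laminin plot; open symbols are not well above background. Itgb3, Itgb6 and Itgav are higher in Clip than in control, Itga2b is lower, and Itga8, Itgb5 and Itga5 overlap between these arms.

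The leukocyte subunits held the largest rises: 5 of 6 rose and none fell, with a median change of 1.50 (background 21.4% higher and 27.5% lower). Itgam, which with Itgb2 forms the Mac-1 receptor of macrophages and neutrophils, was at -6.47, -5.57 and -6.36 in control, -3.56, -3.14 and -3.22 in Clip, and -6.07, -6.06 and -5.75 in ClipR-14. It was well above background on the 3 Clip arrays alone, so it could be tested only through the arm where it was high. The rise was at least 1.97-fold (means -6.13 and -3.31, fitted change 2.83 ± 0.24, adjusted p = 3.35e-05; 0.99 with normexp). Itgax, the alpha subunit used to mark dendritic cells and some macrophages, had -2.06, -1.54 and -1.91 in control, -0.02, 0.57 and 0.12 in Clip, and -1.19, -1.05 and -1.23 in ClipR-14. It rose 4.16-fold (2.06 ± 0.18, adjusted p = 4.36e-05), by 2.04, 2.11 and 2.02 on the slides. Itgam and Itgax lie beside each other with no other protein-coding gene between them in the RefSeq table, and the regions of their starts are shown as those of neighbouring members that rose together.
Itgam, chr7:128062390-128062689, plus strand: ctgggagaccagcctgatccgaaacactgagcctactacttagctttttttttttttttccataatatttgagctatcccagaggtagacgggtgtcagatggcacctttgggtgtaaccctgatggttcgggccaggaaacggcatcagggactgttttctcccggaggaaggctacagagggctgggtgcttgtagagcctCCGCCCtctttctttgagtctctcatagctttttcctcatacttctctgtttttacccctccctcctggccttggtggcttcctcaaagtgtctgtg
Itgax, chr7:128129300-128129599, plus strand: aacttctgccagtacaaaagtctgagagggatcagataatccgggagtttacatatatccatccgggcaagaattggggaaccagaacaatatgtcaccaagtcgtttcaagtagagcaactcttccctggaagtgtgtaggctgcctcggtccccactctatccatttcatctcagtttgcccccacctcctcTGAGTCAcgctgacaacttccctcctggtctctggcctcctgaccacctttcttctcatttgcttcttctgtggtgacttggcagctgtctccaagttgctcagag
The Itgam window holds 1 Sp1 and KLF match, at -47 from the start, and the Itgax window 1 AP-1 match, at -56.

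Itgb2, the beta subunit of these receptors, was at -2.25, -2.18 and -2.20 in control, -0.62, -0.39 and -0.67 in Clip, and -1.98, -1.55 and -2.14 in ClipR-14. It rose 3.13-fold (1.65 ± 0.15, adjusted p = 5.72e-05; 1.07 with normexp). Itgal, the LFA-1 alpha subunit of T cells and other leukocytes, had -3.04, -3.07 and -3.40 in control, -2.16, -1.99 and -2.36 in Clip and -2.70, -2.46 and -3.55 in ClipR-14. It rose 2.0-fold (1.0 ± 0.26, adjusted p = 0.0132), and ClipR-14 3 was the lowest of all 9 arrays. Itgb7, a homing receptor subunit of lymphocytes, was at -0.87, -0.48 and -0.77 in control, 0.57, 0.97 and 0.39 in Clip, and -0.22, -0.09 and -0.75 in ClipR-14. It rose 2.54-fold (1.35 ± 0.21, adjusted p = 0.00095). Its partner Itgae, found on lymphocytes within epithelia, was the leukocyte subunit that did not pass (-0.79 ± 0.32, adjusted p = 0.0707), with -1.32, -2.02 and -2.67 in control, -3.18, -2.71 and -2.49 in Clip and -1.90, -2.08 and -1.75 in ClipR-14.

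Itga4 is the partner of Itgb1 or Itgb7 in the receptor for VCAM-1. The probe used was not well above background in control or ClipR-14 kidneys and was at -4.24, -3.72 and -3.79 in Clip. By this probe Itga4 rose at least 1.26-fold (means -5.11 and -3.92, fitted change 1.19 ± 0.38, adjusted p = 0.0305). Its other probes, well above background on 0 arrays and on 1 array, went the other way in the mean (-0.67 and -0.95). That array was the untreated mouse, at -3.97. The Itga4 call was lost with normexp (0.0949), with replicate number as a block (0.0915), without the filter on dim probes (0.0589), with only the arms compared (0.0656), and without sham 2 (0.0604), Clip 2 (0.0927) or Clip 3 (0.0791). Its fitted change was 0.72 without sham 1.

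Markers of immune cells moved beside these subunits, where 21.4% of all genes rose and 27.5% fell. All 6 leukocyte markers rose (Ptprc by 1.40 and Coro1a by 2.47 on the log2 scale), with a summed level of 4.58 to 4.77 in control, 17.2 to 21.3 in Clip and 6.34 to 6.82 in ClipR-14. Of 9 macrophage markers 8 rose (8.58 to 10.5, 27.0 to 30.9 and 13.8 to 17.1 in the same order), and of 6 T and NK cell markers 4 rose (0.606 to 0.826, 1.21 to 1.69 and 0.834 to 1.48). None of the 3 neutrophil markers tested passed (3.71 to 11.8, 8.86 to 13.0 and 3.17 to 8.89) and none of the 2 dendritic cell markers (0.279 to 0.373, 0.250 to 0.339 and 0.330 to 0.392). The neutrophil enzyme genes Mpo and Elane and the dendritic cell genes Flt3 and Cd209a were not well above background on 3 arrays. The part of cell numbers in the integrin changes was not tested.

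**Figure D5:**
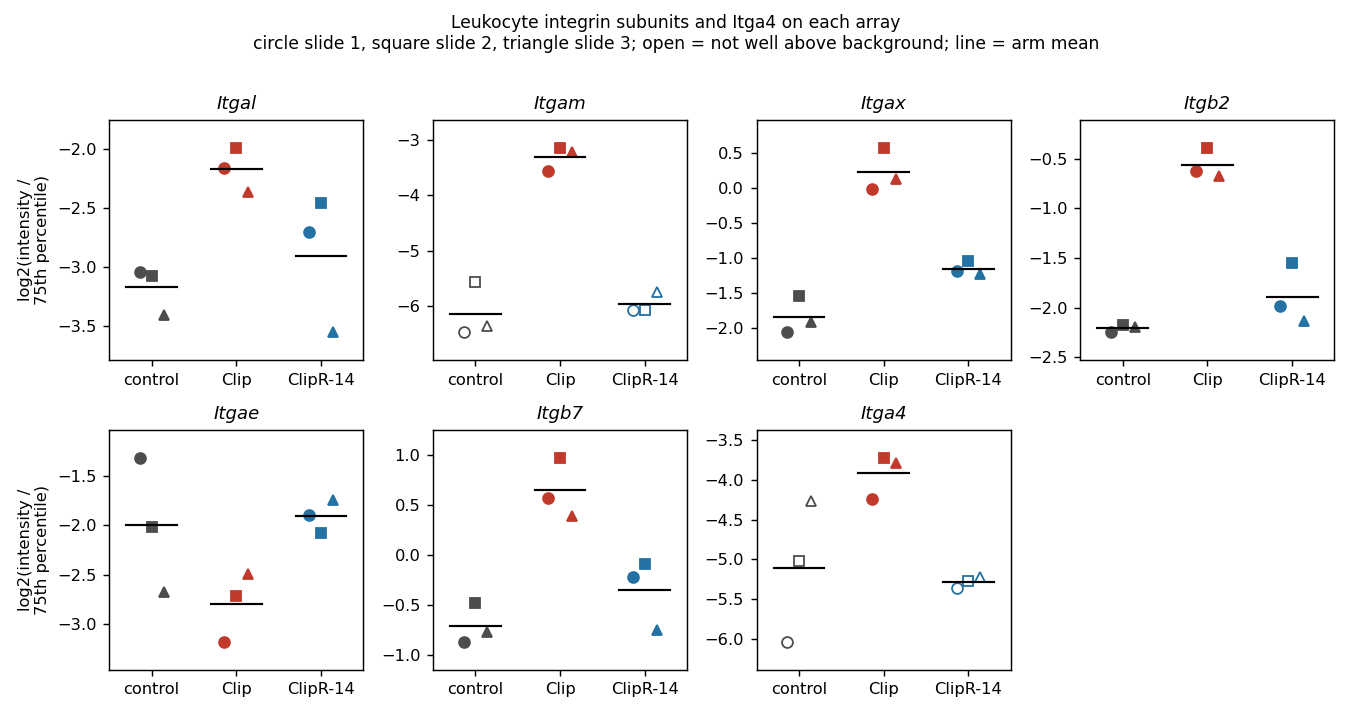
Level of the 6 leukocyte integrin subunits and of Itga4 on each array, by arm, on the same scale as the laminin plot; open symbols are not well above background. All but Itgae are higher in Clip than in both other arms or, for Itga4, above background in Clip alone.

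After 12 days of release 2 members were still past the threshold against control, Itga6 and Itga11, both higher, and none was lower (limma; 7 higher and 2 lower at an unadjusted p under 0.05). This is 6.67% of the members where 1.83% of all genes were called. The median change of the members was 0.16 and that of all genes -0.01, and the arms did not overlap for 12 of 30 members, against 27.2% of all genes. Itga11 was 2.90-fold higher (1.54 ± 0.22, adjusted p = 0.0286), by 1.24, 1.75 and 1.61 on the slides. Itga6 was 1.46-fold higher (0.54 ± 0.09, adjusted p = 0.0344), by 0.55, 0.58 and 0.50. Neither call held under all settings: the adjusted p was 0.0505 for each with replicate number as a block, 0.168 for Itga11 (change 1.03) and 0.224 for Itga6 (change 0.54) with normexp, 0.0653 and 0.0909 without the filter on dim probes, and 0.063 and 0.0849 when only the control and ClipR-14 arrays were fitted.

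Without 1 array the adjusted p of Itga11 was 0.058 (sham 1), 0.0787 (sham 2), 0.0537 (Clip 1), 0.114 (ClipR-14 2) and 0.071 (ClipR-14 3). That of Itga6 was 0.0759 (sham 1), 0.0885 (sham 2), 0.0614 (Clip 1), 0.0526 (Clip 2), 0.066 (ClipR-14 1), 0.119 (ClipR-14 2) and 0.0851 (ClipR-14 3). With slide as a block both passed, and so did Itgax (0.68 ± 0.10, adjusted p = 0.0339), Lamb1 (1.07 ± 0.19, adjusted p = 0.0392) and Lamb3 (1.01 ± 0.17, adjusted p = 0.0375). Beside Itga11 and Lamb1, 4 of 6 fibroblast and pericyte markers stayed higher in ClipR-14, Col1a1 by 2.40-fold and Col3a1 by 2.54-fold, and these 4 calls too were lost with normexp (adjusted p 0.153 for Col3a1 to 0.218 for Pdgfra) and with only the arms compared. Of all genes 1.46% were higher in ClipR-14 than in control. The summed level of the 6 markers was 20.9 to 28.6 in control, 108 to 133 in Clip and 40.2 to 56.4 in ClipR-14. From Clip to ClipR-14 2 of the 6 fell, where 17.4% of all genes did. Their part in the Itga11 values was not tested. Against control, markers of other lists were higher in ClipR-14 too. They were 3 of 9 macrophage and 3 of 9 injured tubule markers, and 1 of 6 each for leukocytes, T and NK cells and urothelium. In the remaining marker lists none passed. With only the arms compared, 0 of all genes passed.

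From Clip to ClipR-14, 16 members fell and 3 rose, where 17.4% of all genes were lower and 23.5% higher (41.0% in all). The arms were apart for 25 of 30 members, against 54.8% of all genes. This comparison shares the Clip arrays with the first and the ClipR-14 arrays with the second. Of the 18 members that had risen in Clip, 15 fell after release, the exceptions being Itga11, Itgal and Lamb3. Itgam and Itga4, tested only through Clip, are among the 15. Genes chosen as high on the Clip arrays are favoured to fall in a comparison with the same arrays. The share of falls among all genes that rose in Clip was not computed. Itgam fell at least 1.63-fold to below background (-2.66 ± 0.24), Itgb3 fell 2.61-fold (-1.38 ± 0.19), Itgax 2.61-fold (-1.38 ± 0.18), Itgb2 2.51-fold (-1.33 ± 0.15) and Itgb4 2.09-fold (-1.06 ± 0.12). Lamb3 was lower by 0.75 ± 0.39 in the mean, which did not pass (adjusted p = 0.158; 0.0118 with slide as a block), and Itgal by 0.73 ± 0.26 (adjusted p = 0.0542; 0.0123 with slide as a block). The risers were Itga2b (1.01 ± 0.23, adjusted p = 0.00805; -0.30 with normexp), Itga11 (0.84 ± 0.22, adjusted p = 0.0171) and Lama3 (0.38 ± 0.11, adjusted p = 0.023).

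Several smaller calls of this comparison rested on single settings or arrays. With normexp those of Itga1, Itga4, Itga6, Itga7, Itga11, Itgb1 and Lama3 were lost (adjusted p 0.0662 for Itga7 to 0.461 for Itga6). Itga11 was lost without ClipR-14 3 (0.0566). Lama3 was lost without Clip 1 (0.0783), Clip 2 (0.068), ClipR-14 1 (0.068) or ClipR-14 3 (0.0592). Itga1 was lost without Clip 2 (0.0641), Clip 3 (0.0756), ClipR-14 1 (0.0825) or ClipR-14 2 (0.077), and Itgb1 without Clip 2 (0.0592), Clip 3 (0.0567) or ClipR-14 1 (0.0612). Itga6 was lost without Clip 1 (0.0624), Clip 2 (0.0666) or ClipR-14 2 (0.0674), and Itga4 without Clip 2 (0.0683), Clip 3 (0.0594), ClipR-14 1 (0.0572) or ClipR-14 2 (0.0543).

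The partners of these receptors followed in part. In the list of 31 integrin ligands tested, 22 rose and 2 fell in Clip, where 21.4% of all genes rose and 27.5% fell, with a median of 1.43. The largest rises were those of the fibrinogen chains Fgb (450-fold) and Fgg (84.3-fold) and of complement C3 (82.1-fold), whose cleaved form is bound by Itgam and Itgax. Fgb was dim in control, well above background on 2 of 3 arrays, and its log2 change was 6.77 with normexp in place of 8.81. Named here as known ligands, after their values were seen, Vcam1, bound by Itga4, rose 9.41-fold and Icam1, bound by Itgal and Itgam, 5.03-fold. Tnc and Spp1, bound by Itga9, rose 5.99-fold and 3.29-fold, and Fn1, bound by Itga5, 5.82-fold. These ligands were picked among the risers and do not show that each receptor's ligands rose. The 7 of 31 that did not pass included Icam2, F11r and Cdh1 (log2 changes of 0.03, 0.04 and 0.09). With normexp the log2 change of Tnc was 1.40 in place of 2.58. The 2 falls, Edil3 (2.34-fold) and the vitronectin gene Vtn (2.14-fold), did not hold with normexp (log2 changes of 0.31 and -0.27). After release 5 of the 31 were higher than control, where 1.46% of all genes were: Fn1, Tnc, Col1a1, Col3a1 and C3. All 5 calls were lost with normexp (adjusted p 0.142 for C3 to 0.547 for Tnc) and with only the arms compared, and that of Tnc with slide as a block (0.0559).

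In the basement membrane list 14 of 29 genes rose and 5 fell in Clip, where 21.4% of all genes rose and 27.5% fell, with a median of 0.57. Besides Col17a1, the largest rises were Col4a1 (3.22-fold), a chain of all basement membranes, and Col18a1 (2.57-fold). Bcam, a receptor for Lama5 named after its values were seen, rose 2.19-fold. Col4a3 and Col4a4, chains of the mature glomerular and distal tubule membranes, fell 2.28-fold and 2.14-fold, and the laminin-like Ntn1 fell 2.11-fold (log2 change of 0.07 with normexp). After release 0 of 29 passed against control (limma; 11 higher and 1 lower at an unadjusted p under 0.05).

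In the list of cytoplasmic adaptors 13 of 38 genes rose and 5 fell in Clip, with a median of 0.22, where 21.4% and 27.5% of all genes did. The rises were led by Parvg (6.23-fold), the parvin of blood cells, Apbb1ip (at least 4.80-fold), which brings talin to integrins in leukocytes, and Actn1 (4.90-fold), an actin cross-linker. With normexp the log2 changes of Parvg and Apbb1ip were 1.31 and 1.10. Tln2, a talin of muscle, brain and kidney, fell 3.29-fold (-1.72 ± 0.13, adjusted p = 1.73e-05), and Tns2, a tensin of podocytes and other cells, fell 1.75-fold (adjusted p = 0.0368). After release 1 of 38 passed against control, where 1.46% of all genes were higher: Apbb1ip, at least 1.35-fold higher (adjusted p = 0.0396), was well above background on 0 control arrays and 1 ClipR-14 array, and with normexp the call was lost (change 0.07).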

How the data were processed

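RNA of 9 whole left kidneys (500 ng each) was labelled with Cy3 and hybridized to single-colour Agilent arrays, per the labels. Per the file headers the arrays are of design 014868, read with a G2505C scanner and Feature Extraction 10.7.3.1, with mm9 as the grid's build. The deposited files give each spot as an intensity, from which Feature Extraction had subtracted background and spatial trends; arrays had not been scaled to each other. Their other columns include median spot and background signals, used for normexp, and flags of 0 or 1. The authors' deposited table of log2 values was not used: of 8065 rows compared, 0 lay within 0.02 (root mean square over 9 arrays) of their own probe and 8059 within 0.02 of some probe.

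Of 45018 spots, 1639 controls were left out. Each array was scaled to its 75th percentile and log2 was taken. Spots flagged as outliers were dropped before averaging spots of a probe. Of 41174 probes 26690 matched a RefSeq symbol (table of GRCm38.p6). Probes well above background on at least 3 arrays were kept, and the brightest stood for its gene. Limma 3.58.1 (R 4.3.3) was fitted with 3 arms over 9 arrays, with p-values adjusted by the Benjamini-Hochberg method and 0.05 as threshold, and was tested on simulated data. If a probe was below background on every array of the dimmer arm, its fold is a lower bound ("at least"), taken from the higher of the probe's own signal and the array's lowest signal well above background.

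Members, lists and tests were chosen with earlier results of these data known. The text names the members, apart from 1 that is counted but not reported here; per list, the 3 largest rises and falls past the threshold in Clip; and genes marked as chosen after their values were seen. The comparisons were Clip with control, ClipR-14 with control and ClipR-14 with Clip. Alternatives were normexp (offset 50; on median signals, the mean signal not being used here), quantile normalization, filters, the mean of probes, sham alone as control, only the arms compared, slide or replicate number as a block, and each array left out. Replicate numbers were not taken to pair mice: same-numbered arrays of different arms correlated at -0.209 to 0.269 in their deviations.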

Additional observations from a re-analysis of the deposited data

How the results depend on the processing

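The 18 members higher in Clip, the 16 that fell from Clip to ClipR-14 and the absence of lower members in ClipR-14 against control stayed within 1.5 times under all alternatives. Of the other counts, members lower in Clip went from 3 to 1 with normexp and lay at 3 to 4 on leaving out 1 array. Members higher in ClipR-14 than control went from 2 to 0 with normexp, without the filter on dim probes, with the replicate block and with only the arms compared, to 5 with slide as a block, and to 0 to 2 on leaving out 1 array. Members higher in ClipR-14 than Clip went from 3 to 1 with normexp, to 5 with probes above background on all 9 arrays, with sham alone as control and with the replicate block, to 6 without the filter, with slide as a block and with only the arms compared, and to 2 to 6 on leaving out 1 array.

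Over all genes, 8676 calls in Clip against control became 5626 with normexp. The 325 calls in ClipR-14 against control became 1 with normexp, 115 with quantile normalization, 12 without the filter, 1163 with slide as a block, 202 with the replicate block, 0 with only the arms compared (limma; 3811 had an unadjusted p under 0.05 in the 3-arm fit) and 2 to 343 on leaving out 1 array, the fewest without ClipR-14 2. The 7270 calls in ClipR-14 against Clip became 4144 with normexp and 13597 without the filter, which adds dim probes.

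With normexp the sign turned for Itga2b in Clip against control (0.15) and in ClipR-14 against Clip (-0.30) and for Lama1 in Clip against control (0.15). The cause was not tested. Of 1608 single changes recomputed 1482 kept direction and side of the threshold where called, 71 lost and 52 gained a call; changes of sign among values not called under either setting (37) are counted as kept. The replicate block cost 3 of 21 calls in Clip against control and 2 of 2 in ClipR-14 against control. Only 3 arrays per arm, and members near background (Itga4, Itgam, Lamb3, Itga2b), limit the precision.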
